A study of Mus musculus with 83 samples.

Results

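The change of colon gene expression between mid and late life was measured in 33 of 83 male C57BL/6J/Ukj mice, 16 aged 15 months and 17 aged 24 months. The members are the libraries whose labels carry these 2 ages, and no library of either age was left out. C57BL/6J is an inbred laboratory strain, so the mice were wild type, all were male, and they were fed freely and received no treatment. RNA came from the proximal section of the colon, a piece of whole wall that holds mucosa, muscle and nerve plexus together, and each library is 1 mouse. Polyadenylated RNA was sequenced with the strand kept, in 3 library preparation batches that held 5, 7 and 4 mice at 15 months and 5, 6 and 6 at 24 months. The 50 mice aged 3, 9 and 28 months entered the model for the spread, and those aged 3 and 9 months (16 each) served as an earlier interval for comparison.

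The colon wall renews its epithelium from crypts. Absorptive colonocytes take up salt, water and short-chain fatty acids, goblet cells secrete the mucus that keeps bacteria away from the surface, and rare tuft and enteroendocrine cells sense the lumen and release signals and hormones. Below the epithelium lie fibroblasts and their matrix, blood and lymph vessels, immune cells, the enteric nervous system and smooth muscle. A bulk library sums over all of these, so the level of a gene follows both how many cells make it and how much each makes.

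Between 30201621 and 52924608 read pairs were counted on genes per mouse at 15 months and between 27802569 and 50861544 at 24 months. The 10 most counted genes took 8.71% to 10.6% of the counts at 15 months and 8.01% to 9.04% at 24 months, and genes of the mitochondrial genome took 3.73% to 5.86% and 3.64% to 4.59%. Within an age, each of 256 pairs of mice spread more over genes than counting noise allows, by a median of 38.7 times and at least 13.4 times. No defining marker of colonocytes, goblet cells, smooth muscle, enteric neurons or glia was at 0 in all 33 mice. The summed level of 7 colonocyte markers had a median of 11452 CPM (counts scaled to a common library size, edgeR's TMM) at 15 months and 11006 CPM at 24 months, and that of 5 smooth muscle markers 3339 and 3675 CPM. Markers of stratified epithelium stayed below 1 CPM in sum in all 33 mice, and those of liver at or below 1.35 CPM.

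1 library stood apart. The 15-month mouse 16 had the lowest level of its age in 26.4% of the genes tested and the highest in 18%, against at most 8.65% and 9.78% for any other 15-month mouse, the highest mitochondrial share (5.86%) and the lowest median correlation of log2 levels with its age (0.987, the others at least 0.990). At 24 months the mice 5 and 7 were lowest in 15.3% and 14.2% of the genes, and no other in more than 8.33%. Without the 15-month mouse 16 the test below called 1322 genes higher and 1271 lower, and 19 of the 144 counts of the gene lists moved past 1.5 times.

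Genes were called when the adjusted p-value of the comparison was below 0.1 (edgeR's quasi-likelihood test on all 83 mice with age and library batch, Benjamini-Hochberg adjustment over 18325 genes). Of the genes tested 13.5% were called, 6.28% higher and 7.24% lower at 24 months, and these shares are the background against which the counts of each gene group below can be read. The median log2 fold change over all genes tested was 0.0016. Of the called genes 45 were more than 1 log2 unit higher and 17 more than 1 log2 unit lower. The 72 gene lists hold 2756 tested genes, of which 501 were called. They were chosen for this tissue with earlier results of these data known. A share above the background can partly reflect that choice. Each log2 fold change is that of 24 against 15 months, adjusted for batch, and is given with its standard error.

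**Figure D1:**
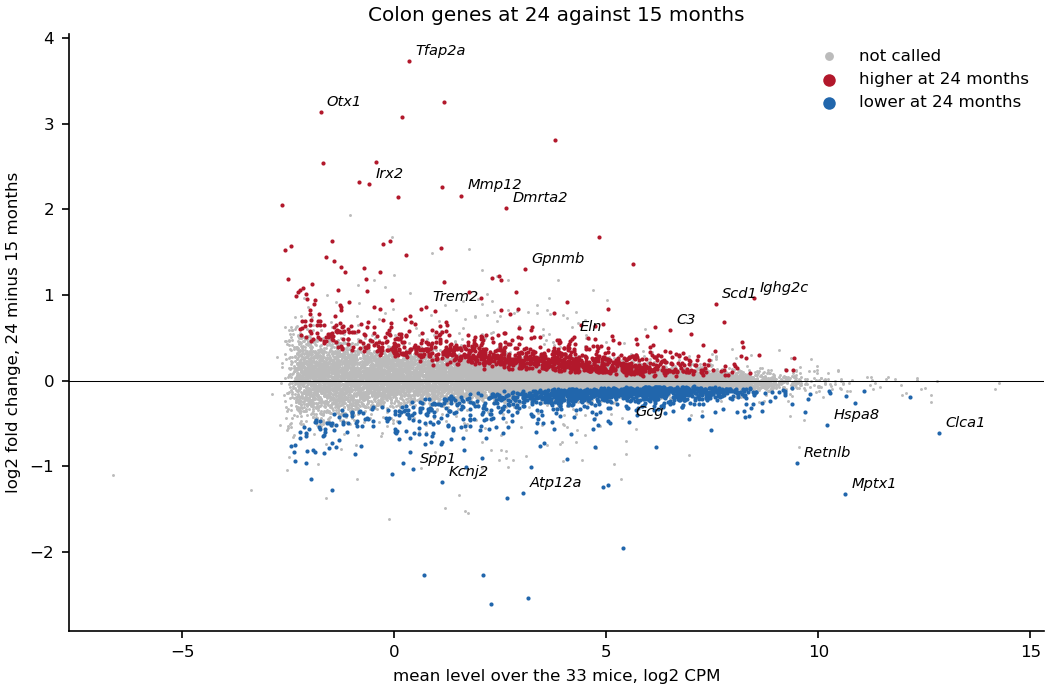
Log2 fold change at 24 against 15 months (vertical axis) against the mean level over the 33 mice in log2 CPM (horizontal axis) for the 18325 genes tested. Red points mark the 1150 genes called higher and blue points the 1326 called lower. The largest rises, such as Tfap2a at 3.73, are of genes at low levels, while called falls reach the most abundant genes, such as Clca1 at -0.61.

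In 11 genes the values of the 2 ages did not overlap, which is 0.06% of the genes tested, and 6 of these, picked out after their values were seen, are 4 transcription factors known from development and 2 noncoding transcripts beside them: Tfap2a, Dmrta2, Otx1 and Irx2, with Dmrta2os and Gm20554. The others were Mmp12, Lhfpl4 and Vsig2 on the higher side and Zfp37 and Chn2 on the lower side. Tfap2a encodes the AP-2 alpha factor of neural crest and skin, Dmrta2 a DM-domain factor of the forebrain, Otx1 a homeobox factor of the forebrain and Irx2 an Iroquois homeobox factor.

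A pair of these factors is transcribed away from a neighbouring noncoding transcript that rose with it. Dmrta2 (chr4:109978053-109983687, plus strand, GRCm38) starts, by RefSeq, 212 bases from Dmrta2os (chr4:109976738-109977813, annotated as antisense, minus strand), and Irx2 (chr13:72628820-72634198, plus strand) starts 256 bases from the lincRNA Gm20554 (chr13:72626213-72628564, minus strand). The stretches between the starts are printed because they hold the promoter side of both transcripts of a pair. They come from RefSeq's promoter windows on build GRCm38.p6, on the plus strand, with every CpG in capitals.

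The window between the starts of Dmrta2os and Dmrta2 (chr4:109977814-109978024) holds 15 CpGs in 211 bases, and that between Gm20554 and Irx2 (chr13:72628570-72628819) holds 19 in the 250 bases nearest to Irx2.
Dmrta2os to Dmrta2: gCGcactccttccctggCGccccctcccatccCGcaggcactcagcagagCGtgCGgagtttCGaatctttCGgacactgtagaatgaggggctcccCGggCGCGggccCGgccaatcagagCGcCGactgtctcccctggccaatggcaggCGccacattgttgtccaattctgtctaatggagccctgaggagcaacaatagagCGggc
Gm20554 to Irx2: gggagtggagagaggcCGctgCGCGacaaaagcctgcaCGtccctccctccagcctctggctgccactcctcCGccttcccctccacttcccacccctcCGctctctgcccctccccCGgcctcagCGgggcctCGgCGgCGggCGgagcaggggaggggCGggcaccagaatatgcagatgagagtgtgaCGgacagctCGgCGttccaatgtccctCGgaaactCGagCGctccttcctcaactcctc
The 300-base promoter window of Dmrta2 holds 26 CpGs and that of Irx2 25. Of all promoter windows of the genes tested, 28.9% and 31.8% held at least as many.

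Tfap2a (chr13:40715302-40738376) ranged from 0.0833 to 0.312 CPM at 15 months (median 0.177) and from 1.96 to 2.74 CPM at 24 months (median 2.38). The 2 ages were separate, and the log2 fold change was 3.73 ± 0.18 (adjusted p = 1.79e-30). Of its paralogs, Tfap2b, Tfap2c, Tfap2d and Tfap2e did not pass the filter on low counts, and Tfap2e, the highest of them, reached 0.10 CPM at 15 months and 0.132 CPM at 24 months. Dmrta2 ranged from 1.51 to 3.70 CPM at 15 months (median 2.44) and from 7.31 to 13.5 CPM at 24 months (median 10.1), and its neighbour Dmrta2os from 0.0300 to 0.333 CPM (median 0.198) and from 0.699 to 1.36 CPM (median 0.820). All 17 mice at 24 months exceeded all 16 at 15 months in both transcripts, with log2 fold changes of 2.01 ± 0.11 (adjusted p = 1.81e-25) and 2.32 ± 0.16 (adjusted p = 8.99e-20).

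Irx2 lay between 0.0907 and 0.430 CPM in the 15-month mice (median 0.224) and between 0.836 and 1.63 CPM in the 24-month mice (median 1.04), a change of 2.30 ± 0.19 (adjusted p = 1.97e-16). Its neighbour Gm20554 ranged from 0 to 0.218 CPM at 15 months (median 0.0819) and from 0.322 to 0.877 CPM at 24 months (median 0.477), a change of 2.55 ± 0.25 (adjusted p = 7.39e-13). Otx1 (chr11:21994764-22002897) lay between 0 and 0.125 CPM in the 15-month mice (median 0.0459) and between 0.213 and 1.00 CPM in the 24-month mice (median 0.519), a change of 3.13 ± 0.25 (adjusted p = 6.97e-17). All 17 older mice exceeded all younger ones in each of these 3 transcripts, and the highest median among them at 24 months was 1.04 CPM. Otx1, Dmrta2os, Gm20554 and Chn2 were named after their values were seen.

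Gata4, a zinc finger factor that marks small intestinal rather than colonic epithelium, ranged from 0.367 to 2.52 CPM at 15 months (median 1.23) and from 1.61 to 5.90 CPM at 24 months (median 2.97). The ages overlapped, but 12 of the 17 older mice lay above the highest younger mouse, and the log2 fold change was 1.15 ± 0.21 (adjusted p = 0.000196). Of 12 listed markers of small intestine edgeR called 0 of the 5 that were tested, 2 had an unadjusted p-value below 0.05, DESeq2 called 0, and 1 was higher with only the 33 mice in the fit, in which 9.97% of all genes were higher and 9.11% lower. Without the filter on low counts 2 were called lower, and with marker scores of colonocytes, smooth muscle and B cells as covariates, a fit in which 5.99% of all genes were higher and 6.08% lower, 1 was higher. Their summed level went from a median of 218 CPM to 217 CPM. Onecut2, a homeobox factor, rose by 0.86 ± 0.22 (adjusted p = 0.00767) from a median of 0.227 CPM to 0.583 CPM.

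Of 62 tested Fox, Sox, Tbx, Pax, Gata and Irx factors 9 rose and 4 fell, with a median log2 fold change of 0.046. Besides Irx2 and Gata4 the risers were Foxc2 (0.70), a factor of lymphatic valves, Tbx4 (0.40), Gata2 (0.33), Gata3 (0.33), Sox17 (0.27), Foxn3 and Foxk1, and the fallers were Pax6, Foxa3, Foxa1 and Foxk2. The number of fallers moved between 1 and 5 when 1 mouse was left out, with 1 left without the 15-month mouse 8, the 15-month mouse 10 or the 24-month mouse 1. Of 32 tested Hox genes, which encode position along the body axis, edgeR called 0, with 1 higher and 1 lower at an unadjusted p-value below 0.05 and 0 called by DESeq2. With only the 33 mice 1 was higher and 1 lower, and with the replicate block 1 was lower. The most abundant per length, Hoxb9, had medians of 102 and 94.4 CPM. Leaving out 1 of the 33 mice at a time, calls were lost for Tbx4 (17), Gata3 (16), Foxk1 (13), Pax6 (8), Foxa1 (4) and Foxk2 (16), with the number of the 33 fits in brackets.

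**Figure D2:**
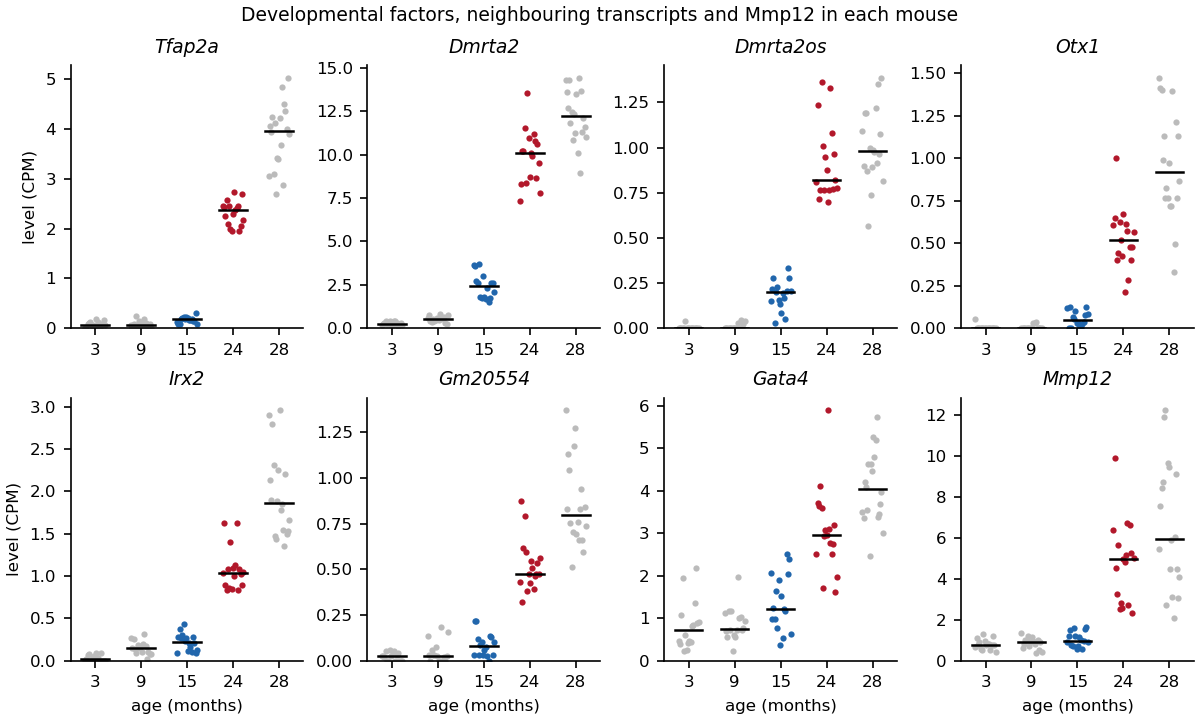
Level in CPM (vertical axes, linear from 0) of 8 genes in each mouse at 3, 9, 15, 24 and 28 months (horizontal axes), with each point 1 mouse and each bar the median of the age. The 15-month mice are blue and the 24-month mice red. In all panels but that of Gata4 the points of these 2 ages do not overlap, for example at most 0.312 CPM against at least 1.96 CPM for Tfap2a.

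Among the other genes whose ages did not overlap, Mmp12, the elastase of macrophages, ranged from 0.567 to 1.65 CPM at 15 months (median 0.990) and from 2.33 to 9.87 CPM at 24 months (median 4.99). Every older mouse exceeded every younger one, and the change was 2.16 ± 0.20 (adjusted p = 1.63e-13). Lhfpl4, a partner of neuronal GABA type A receptors, rose by 0.97 ± 0.12 (adjusted p = 2.75e-09) from medians of 2.83 CPM to 5.62 CPM, and Vsig2, a membrane protein of the immunoglobulin superfamily, by 0.62 ± 0.054 (adjusted p = 2.56e-15) from 54.4 CPM to 85.1 CPM. The ages were apart in both, and Vsig2 kept to 47.9 to 66.0 CPM at 15 months and 73.3 to 93.7 CPM at 24 months. On the lower side, the zinc finger gene Zfp37 lay between 4.42 and 7.13 CPM in the 15-month mice (median 5.63) and between 2.95 and 4.22 CPM in the 24-month mice (median 3.99), a change of -0.56 ± 0.072 (adjusted p = 2.06e-08), and Chn2, which encodes the Rac regulator beta-chimaerin, fell, with a log2 fold change of -0.27 ± 0.047 (adjusted p = 8.66e-05) from 41.0 CPM to 34.9 CPM.

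The falls with the smallest p-values belong to genes of different functions. Cstf2t, a retrotransposed polyadenylation factor gene, ranged from 28.6 to 44.0 CPM at 15 months (median 38.6) and from 21.4 to 35.6 CPM at 24 months (median 27.4). Its log2 fold change was -0.47 ± 0.048 (adjusted p = 6.84e-12), with 12 of 17 older mice below the lowest younger one. Kcnj2, the inward rectifier potassium channel Kir2.1, lay between 1.71 and 4.95 CPM in the 15-month mice (median 2.76) and between 0.979 and 1.78 CPM in the 24-month mice (median 1.21), a change of -1.18 ± 0.15 (adjusted p = 8.22e-09). Kremen2, a receptor of Dickkopf Wnt antagonists, fell, with a log2 fold change of -0.91 ± 0.11 (adjusted p = 1.6e-08) from 5.51 CPM to 3.02 CPM, and Armcx3, an X-linked gene for a mitochondrial outer membrane protein, by -0.42 ± 0.052 (adjusted p = 7.78e-09) from 21.7 CPM to 16.2 CPM. Further large falls were those of Spp1 (osteopontin, -1.03 ± 0.24, adjusted p = 0.00355), Anxa13 (an epithelial annexin, -1.01 ± 0.18, adjusted p = 7.94e-05), the antisense transcript Kirrel3os (-0.96 ± 0.31, adjusted p = 0.041) and the pseudogene Gm10499 (-1.0 ± 0.16, adjusted p = 1.25e-05), which may share reads with related genes of its family.

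**Figure D3:**
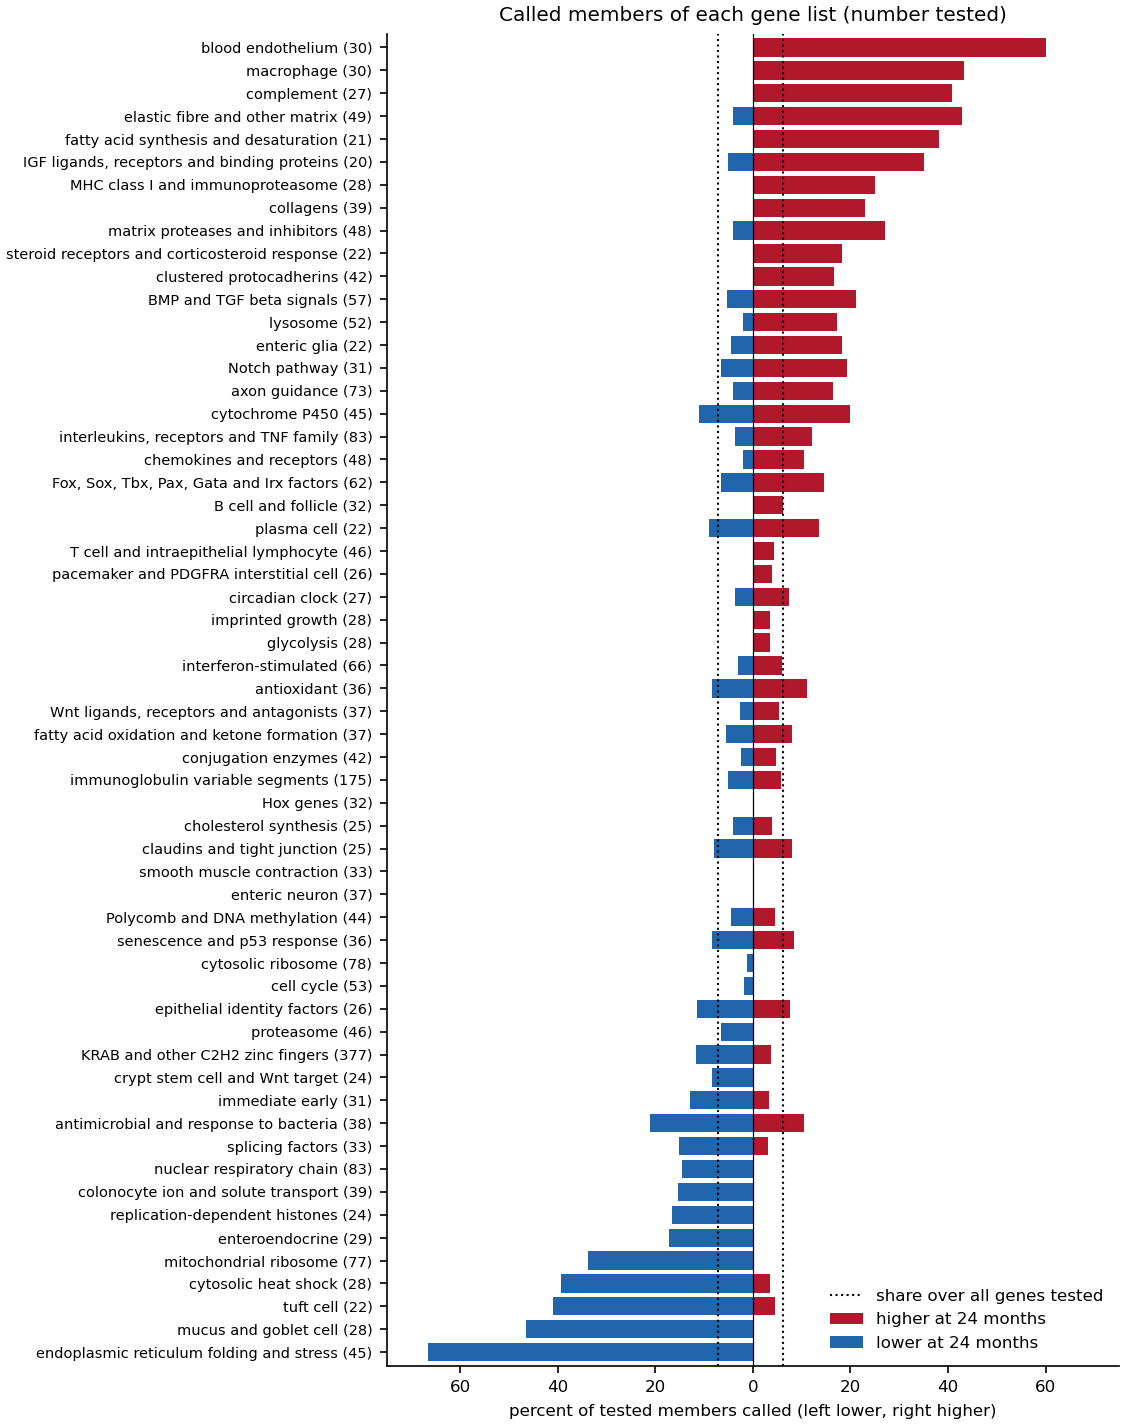
Percent of the tested members of each gene list that were called higher (red, to the right) or lower (blue, to the left) at 24 months, for the lists with at least 20 tested members, whose number stands in brackets. The dotted lines mark the share over all genes tested, 6.28% higher and 7.24% lower. Blood endothelium (60.0% higher) and endoplasmic reticulum folding (66.7% lower) stand at the ends.

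Of the genes of protein folding in the endoplasmic reticulum 66.7% fell. This compartment folds secreted and membrane proteins with the chaperone BiP (Hspa5), lectin chaperones and disulfide isomerases, and an overload of unfolded protein raises their genes through the factors Xbp1, Atf6 and Atf4. Of 45 tested genes 30 fell and 15 did not pass the test, the median log2 fold change was -0.14, and all 45 estimates were below 0. Without the filter on low counts 19 fell. In the 3 library batches the median was -0.12, -0.13 and -0.17. The genes that fell were the chaperones and cochaperones Hspa5, Hyou1, Dnajc3, Dnajb9, Dnajb11, Sdf2l1, Creld2 and Manf, the lectin chaperone Canx, the isomerases Pdia4, Pdia5 and Pdia6, the oxidase Ero1l, the translocon genes Sec61a1, Sec61b and Sec61g with their partners Ssr2, Ssr3 and Ssr4, the signal peptidase genes Spcs1, Spcs2, Spcs3 and Sec11c, the degradation genes Syvn1, Edem1, Edem2 and Derl2, and the factors Xbp1, Atf4 and Ddit3. Sdf2l1, Canx, Pdia4, Sec61a1, Sec61b, Sec61g, Ssr2, Spcs1, Spcs2, Spcs3 and Ddit3 lost their calls in 15, 1, 11, 4, 7, 3, 4, 1, 23, 4 and 20 of the 33 fits without 1 mouse.

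Hspa5 (chr2:34771970-34777547) ranged from 630.4 to 1193 CPM at 15 months (median 913) and from 512 to 1024 CPM at 24 months (median 704). 14 of the 17 older mice lay below the younger median and 5 below the lowest younger mouse, and the log2 fold change was -0.37 ± 0.10 (adjusted p = 0.0145). Hyou1, another chaperone of this compartment, lay between 108 and 280.5 CPM in the 15-month mice (median 221) and between 109 and 238 CPM in the 24-month mice (median 157), a change of -0.36 ± 0.11 (adjusted p = 0.0236) with 16 of 17 older mice below the younger median. Creld2, a disulfide isomerase-like protein, fell, with a log2 fold change of -0.34 ± 0.11 (adjusted p = 0.0425) from 56.7 CPM to 42.5 CPM, and Xbp1 by -0.15 ± 0.049 (adjusted p = 0.0405) from 373 CPM to 337 CPM. The ages overlapped in each of these genes. P4hb, the member with the highest level per length (1122 ± 63.8 TPM at 15 months, mean ± SD), had medians of 1090.1 and 1026 CPM (adjusted p = 0.219), and the sensor genes Ern1, Eif2ak3 and Atf6 did not pass the test. In bulk tissue fewer cells of a secretory type and less RNA per cell cannot be told apart, and the summed level of 5 goblet markers moved in the same direction, from a median of 39135 CPM (range 18516 to 49031) to 31769 CPM (range 25987 to 39635). Of these 5 markers 1, Clca1, was called lower (-0.61), and Muc2, Fcgbp, Tff3 and Zg16 did not pass. Plasma cells secrete too: the log2 fold changes of their markers were -0.19 for Jchain, -0.17 for Igha and -0.00069 for Mzb1, and none of the 3 passed (adjusted p = 0.524, 0.637 and 0.998). Their summed level, not adjusted for batch, had medians of 3931 CPM (range 2821 to 13460.4) and 4580.3 CPM (range 2045 to 8888). The part of either cell type in the result was not tested.

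Several of these genes carry the ER stress element in their promoter, the sequence through which ATF6 and XBP1 are known to act, and the elements found in the list are shown. The motif searched was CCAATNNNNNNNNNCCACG on both strands, in RefSeq's windows of 250 bases before to 50 after the gene start (GRCm38.p6). The windows held it in 9 of 35 listed genes that have one and in 19 of 12716 tested genes, 0.149% of all promoters of this length. Capitals mark the CCAAT and CCACG ends, and each element is written 5′ to 3′ on its strand.
Hspa5 (chr2:34772025-34772043, plus strand): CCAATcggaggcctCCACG
Hsp90b1 (chr10:86705638-86705656, minus strand): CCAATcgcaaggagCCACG
Hsp90b1 (chr10:86705533-86705551, plus strand): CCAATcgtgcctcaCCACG
Calr (chr8:84847075-84847093, plus strand): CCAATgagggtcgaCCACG
Canx (chr11:50325800-50325818, minus strand): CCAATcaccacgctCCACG
Pdia6 (chr12:17266491-17266509, plus strand): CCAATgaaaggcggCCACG
Dnajc3 (chr14:118937827-118937845, plus strand): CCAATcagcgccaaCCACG
Creld2 (chr15:88819520-88819538, minus strand): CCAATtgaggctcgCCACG
Syvn1 (chr19:6046532-6046550, plus strand): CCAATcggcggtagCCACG
Derl3 (chr10:75893242-75893260, minus strand): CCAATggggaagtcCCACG
Of the 9 genes with the element 6 fell, with log2 fold changes over all 9 from -0.37 (Hspa5) to -0.080 (Derl3). Of the 26 listed genes without it in this window 17 fell. The other 10 tested genes that hold it lie outside the list, and 1 of these fell and 1 rose.

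Goblet cells package the gel-forming mucin Muc2 with proteins such as Fcgbp, Clca1 and Zg16. Of 28 tested mucus and goblet cell genes 13 fell and 15 did not pass, with a median of -0.15 (-0.17, -0.14 and -0.19 by batch). Those that fell were Retnlb (-0.96), Clca1 (-0.61), Spdef (-0.33), Capn9 (-0.29), Ccl6 (-0.27), Agr2 (-0.26), Foxa3 (-0.26), Atoh1 (-0.22), C1galt1c1 (-0.18), Galnt12 (-0.15), Sytl2 (-0.15), Klk1 (-0.14) and C1galt1 (-0.13), which include the goblet cell factors Spdef, Atoh1 and Foxa3 and the enzymes C1galt1, C1galt1c1 and Galnt12 that build the sugar chains of mucin. Retnlb, Atoh1, Sytl2, Klk1 and C1galt1 lost their calls in 1, 20, 4, 24 and 20 of the 33 fits without 1 mouse.

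Clca1, a secreted protease of the mucus layer, ranged from 3697 to 17917 CPM at 15 months (median 8813) and from 2956 to 11334 CPM at 24 months (median 5332). 14 of 17 older mice lay below the younger median and 3 below the lowest younger mouse, a change of -0.61 ± 0.19 (adjusted p = 0.0291). Retnlb, a goblet cell protein that acts against bacteria, went from a median of 846 CPM to 419 CPM, a change of -0.96 ± 0.31 (adjusted p = 0.0374). Without the 15-month mouse 15 it was -0.73 (adjusted p = 0.112). Muc2 itself, by length the most abundant listed transcript at 7857 ± 1496 TPM (mean ± SD) at 15 months and 7604 ± 569 TPM at 24 months, changed by -0.091 ± 0.060 (adjusted p = 0.365) and so did not pass. The factor Spdef ranged from 153 to 322 CPM at 15 months (median 251) and from 129 to 246 CPM at 24 months (median 196), a change of -0.33 ± 0.10 (adjusted p = 0.0316). Its ages overlapped, with 3 older mice below all younger ones.

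Among the sensory cells of the epithelium, 9 of 22 tested tuft cell genes fell and 1 rose, with a median of -0.21 (-0.20, -0.17 and -0.19 by batch). Tuft cells taste luminal compounds through Gnat3 and the channel Trpm5 and start type 2 immune responses. The genes that fell were Rgs13 (-0.43), Gnat3 (-0.37), Trpm5 (-0.33), Alox5 (-0.32), Pou2f3 (-0.29), Sh2d6 (-0.27), Cd24a (-0.27), Bmx (-0.23) and Sh2d7 (-0.20), among them Pou2f3, the factor that specifies the cell. The one that rose, Ptgs1 (0.22), encodes cyclooxygenase 1, which other cells of the wall also make. The summed level of the listed genes was 814 to 1031 CPM (median 892) at 15 months and 717 to 916 CPM (median 771) at 24 months, and 15 of the 17 older mice lay below the lowest younger mouse. Cd24a, which other epithelial cells express too, is the largest part of this sum. Rgs13, a regulator of G protein signalling, lay between 3.53 and 8.74 CPM in the 15-month mice (median 5.75) and between 2.95 and 5.54 CPM in the 24-month mice (median 4.39), a change of -0.43 ± 0.098 (adjusted p = 0.00284), and Trpm5 fell, with a log2 fold change of -0.33 ± 0.075 (adjusted p = 0.00312) from 14.8 CPM to 11.9 CPM. Bmx and Sh2d7 lost their calls in 7 and 7 of the 33 fits without 1 mouse.

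Of 29 tested enteroendocrine genes 5 fell and 24 did not pass, with a median of -0.066 (0.0044, -0.098 and -0.19 by batch). The fallers were 3 hormones and 2 factors. Gcg, from which L cells make glucagon-like peptides, ranged from 38.4 to 68.1 CPM at 15 months (median 54.7) and from 25.5 to 49.2 CPM at 24 months (median 39.5). 7 of 17 older mice lay below all younger ones, a change of -0.48 ± 0.073 (adjusted p = 2.13e-06). Nts (neurotensin) fell, with a log2 fold change of -0.62 ± 0.13 (adjusted p = 0.00096) from 21.8 CPM to 14.7 CPM, and Insl5, an insulin-like peptide of colonic L cells, lay between 2.34 and 5.79 CPM in the 15-month mice (median 3.65) and between 1.34 and 3.59 CPM in the 24-month mice (median 2.31), a change of -0.66 ± 0.16 (adjusted p = 0.00519) with 9 older mice below all younger ones. The factors were Neurod1 (-0.32) and Pax6. The granule genes Chga, Chgb, Scg2, Scg3 and Scg5 and the hormone genes Pyy, Cck, Sst and Tac1 did not pass, and Chgb, the most abundant per length, had medians of 263 and 255 CPM.

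Of 38 tested antimicrobial genes 8 fell and 4 rose, with a median of -0.18 (-0.14, -0.16 and -0.11 by batch). The fallers were Mptx1 (-1.32), Mptx2 (-1.28), Retnlb (-0.96), Saa1 (-0.57), Nod2 (-0.22), Pglyrp1 (-0.20), Fut2 (-0.20) and Pigr (-0.19). Pigr carries immunoglobulin A across the epithelium and Mptx1 is a pentraxin-like mucosal protein. Mptx1 spread widely within each age, from 135 to 4902 CPM and from 24.0 to 2304 CPM, and its call (adjusted p = 0.0809) was lost in 11 of the 33 fits that each left out 1 mouse. The risers include the neutrophil proteins S100a8 (1.09 ± 0.33, adjusted p = 0.0306) and S100a9 (1.45 ± 0.32, adjusted p = 0.00211) at medians of 0.189 and 0.358 CPM at 24 months, and Lcn2 (0.37 ± 0.11, adjusted p = 0.0212). S100a8 and S100a9 are 2 of the 3 neutrophil markers used, and the other, Retnlg, did not pass (0.20, adjusted p = 0.745). The listed lectins Reg3b and Reg3g and the enzymes Duox2 and Nos2 did not pass. Reg1 rested on few mice: 56.1% of its summed level at 24 months came from 1 mouse, and without the 24-month mouse 11 its change was 0.34 (adjusted p = 0.614). Mptx2 lost its call in 3 of the 33 fits without 1 mouse.

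Of 39 tested genes of colonocyte ion and solute transport 6 fell and 33 did not pass, with a median of -0.018 (-0.052, -0.058 and 0.0011 by batch). Kcne3, the potassium channel subunit that pairs with Kcnq1 in chloride secretion, ranged from 152 to 195 CPM at 15 months (median 177) and from 92.3 to 156 CPM at 24 months (median 130.4). 13 of 17 older mice lay below all younger ones, a change of -0.41 ± 0.078 (adjusted p = 0.000244). Atp12a, the colonic proton-potassium pump, lay between 3.79 and 44.1 CPM in the 15-month mice (median 8.53) and between 1.37 and 15.5 CPM in the 24-month mice (median 4.04), a change of -1.31 ± 0.37 (adjusted p = 0.0184). The estimates in the batches were -1.21, -1.84 and -0.40. Both subunits of the basolateral bile acid exporter fell, Slc51a by -0.28 ± 0.088 (adjusted p = 0.0322) and Slc51b by -0.22, as did Car4 (-0.23) and Slc6a14 (-0.17). Genes of the main transport routes, among them Slc26a3, Slc9a3, the sodium channel subunits Scnn1a and Scnn1b, Aqp8 and the guanylins, did not pass. Slc51b and Slc6a14 lost their calls in 16 and 10 of the 33 fits without 1 mouse.

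At the junctions, 2 of 25 tested claudin and tight junction genes rose and 2 fell. Ocln (occludin) went from a median of 104 CPM to 113 CPM, a change of 0.15 ± 0.040 (adjusted p = 0.0143) with 11 of 17 older mice above all younger ones, Cldn1 rose by 0.56 ± 0.15 (adjusted p = 0.0102) and Cldn15 fell, with a log2 fold change of -0.15 ± 0.041 (adjusted p = 0.0148). Cldn2, which forms a channel for sodium and water, changed by -0.36 ± 0.14 (adjusted p = 0.0862), but this call was lost in 17 of the 33 fits without 1 mouse. With the marker scores as covariates 5 of the junction genes were higher. Of 17 tested keratins edgeR and DESeq2 called 0, with 2 lower at an unadjusted p-value below 0.05 and 1 lower with the replicate block.

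**Figure D4:**
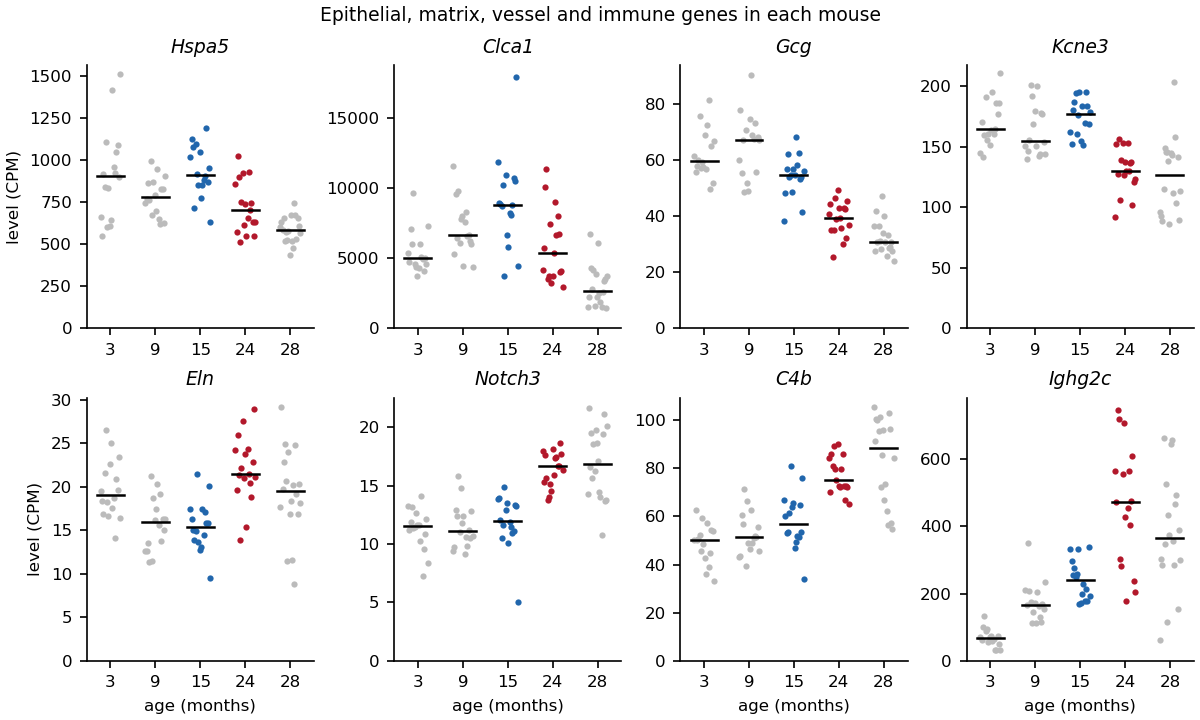
Level in CPM (vertical axes, linear from 0) of 8 epithelial, matrix, vessel and immune genes in each mouse at 5 ages (horizontal axes, months), with each point 1 mouse and each bar the median of the age. The 15-month mice are blue and the 24-month mice red. Both ages overlap in each gene. In Kcne3 13 of 17 older mice lay below the younger range, and in Notch3 14 lay above it.

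Of 28 tested heat shock genes, whose products fold proteins outside the endoplasmic reticulum under the factor Hsf1, 11 fell and 1 rose, with a median of -0.16 (-0.056, -0.21 and -0.085 by batch). Hspa8, the constitutive Hsc70 chaperone, ranged from 937 to 2055 CPM at 15 months (median 1342) and from 776 to 1332 CPM at 24 months (median 932). 10 of 17 older mice lay below all younger ones, a change of -0.51 ± 0.13 (adjusted p = 0.00688). Hsph1, its nucleotide exchange partner, lay between 34.8 and 144 CPM in the 15-month mice (median 86.0) and between 28.5 and 103 CPM in the 24-month mice (median 43.4), a change of -0.77 ± 0.25 (adjusted p = 0.0381) with 5 below, and Dnaja1 fell, with a log2 fold change of -0.45 ± 0.15 (adjusted p = 0.0474). The other fallers were Chordc1, Hsp90aa1, Stip1, Fkbp4, Ahsa1, Hspe1, Hspa4 and Hsf1. The inducible genes Hspa1a and Hspa1b and the small heat shock genes Hspb1, Hspb6 and Cryab did not pass. The count of fallers moved past 1.5 times in 12 of the 33 fits without 1 mouse, down to 6, and was 6 with the marker scores as covariates. Between 3 and 9 months 16 of these 28 genes had also fallen, with a median of -0.23, an interval in which 5.05% of all genes tested fell. Hsp90aa1, Stip1, Fkbp4, Ahsa1 and Hspe1 lost their calls in 19, 4, 15, 12 and 25 of the 33 fits without 1 mouse.

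Immediate early genes, which respond to stimulation within minutes and also to handling of the tissue, were 4 lower and 1 higher of 31 tested, with a median of -0.050 (0.075, -0.0069 and -0.21 by batch). Egr1 ranged from 15.5 to 54.6 CPM at 15 months (median 28.4) and from 13 to 30.1 CPM at 24 months (median 20.1), a change of -0.56 ± 0.14 (adjusted p = 0.00705), and Nr4a2 fell, with a log2 fold change of -0.50 ± 0.13 (adjusted p = 0.00803). Fos (-0.30 ± 0.11, adjusted p = 0.0787) lost its call in 13 of the 33 fits without 1 mouse.

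Mitochondria translate their own respiratory subunits on separate ribosomes, whose proteins are encoded in the nucleus. Of 77 tested genes of this ribosome 26 fell and 51 did not pass, 74 of the 77 estimates were below 0, and the median was -0.088. The size depended on the batch, with medians of -0.024, -0.055 and -0.18. Mrpl47 ranged from 17.4 to 24.3 CPM at 15 months (median 18.9) and from 14.3 to 19.2 CPM at 24 months (median 17.5), a change of -0.20 ± 0.051 (adjusted p = 0.00752), Mrps7 fell, with a log2 fold change of -0.16 ± 0.045 (adjusted p = 0.0157) and Mrpl34 by -0.19 ± 0.061 (adjusted p = 0.0383), each with 6 to 8 of 17 older mice below all younger ones. The count moved past 1.5 times in 12 of the 33 fits without 1 mouse, down to 14, was 17 with the marker scores as covariates and 11 without the filter on low counts.

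Of 83 tested nuclear genes of the respiratory chain 12 fell, with a median of -0.075. The median was 0.026, -0.045 and -0.21 in the 3 batches, so its sign differed between them, and the count ranged from 3 without the 15-month mouse 16 to 27 without the 24-month mouse 7, and was 2 without the filter on low counts. Of the 13 genes of the mitochondrial genome mt-Nd2 alone was called (-0.12 ± 0.040, adjusted p = 0.0467), and without the 24-month mouse 17 it was -0.11 (adjusted p = 0.101). Of 78 tested genes of the cytosolic ribosome 1, Rps10, was called, and the list's median was 0.0014, with batch medians of 0.13, 0.036 and -0.18. Of 46 proteasome genes 3 were called lower (median -0.047), between 1 and 9 when 1 mouse was left out, with the highest count without the 24-month mouse 7. Rps10 lost its call in 3 of the 33 fits without 1 mouse.

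In the nucleus, 44 of 377 tested genes of KRAB and other C2H2 zinc fingers, many of which silence retroelements, fell and 14 rose, with a median of -0.050 (-0.044, -0.047 and -0.056 by batch). After Zfp37, the largest falls were Zfp493 (-0.36 ± 0.099, adjusted p = 0.0146) and Zfp709 (-0.28 ± 0.059, adjusted p = 0.00135), and the largest rise was Zfp185 (0.40 ± 0.13, adjusted p = 0.0471), which is a LIM domain protein in spite of its name. The number of rises was 9 without the 15-month mouse 13 and without the 24-month mouse 15. The number of falls was 29 without the 15-month mouse 16, 27 without the 24-month mouse 1 and 25 without the 24-month mouse 15. Of 33 splicing factors 5 fell and 1 rose: Tra2a by -0.25 ± 0.067 (adjusted p = 0.0114), Srsf7 by -0.17 ± 0.041 (adjusted p = 0.00436) and Hnrnpc by -0.17 ± 0.055 (adjusted p = 0.038), against Hnrnpd (0.12 ± 0.034, adjusted p = 0.0216). With 1 mouse left out the falls numbered 3 to 7. Of 24 tested replication-dependent histone genes, whose messages mostly lack a poly(A) tail and are poorly captured here, 4 fell (0.047, -0.31 and -0.36 by batch), and 2 did so in 8 of the 33 fits without 1 mouse and with the marker scores as covariates.

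Of 21 tested genes of fatty acid synthesis and desaturation 8 rose and 13 did not pass: Thrsp (1.18), Scd1 (0.90), Fads1 (0.34), Fasn (0.29), Srebf1 (0.27), Acaca (0.22), Gpam (0.17) and Elovl6 (0.14). The median of the list was 0.071 (0.063, 0.062 and 0.16 by batch). Fads1, the delta-5 desaturase of polyunsaturated fatty acids, ranged from 41.9 to 70.4 CPM at 15 months (median 57.5) and from 59.6 to 90.9 CPM at 24 months (median 70.5). 9 of 17 older mice lay above all younger ones, a change of 0.34 ± 0.078 (adjusted p = 0.00319). Scd1, the desaturase that makes oleic acid, lay between 71.4 and 273 CPM in the 15-month mice (median 120.2) and between 64.5 and 969.6 CPM in the 24-month mice (median 155), a change of 0.90 ± 0.30 (adjusted p = 0.0498) with batch values of 0.18, 0.34 and 1.78, and Thrsp, a lipogenic cofactor, changed by 1.18 ± 0.41 (adjusted p = 0.0585). Without the 24-month mouse 16 the values were 0.62 (adjusted p = 0.158) for Scd1 and 0.93 (adjusted p = 0.136) for Thrsp, without the 24-month mouse 3 Thrsp was 0.96 (adjusted p = 0.138), and 5 of the genes were called without mouse 16. Both also lost their call with only the 33 mice in the fit (0.69, adjusted p = 0.132 for Scd1, and 1.02, adjusted p = 0.135 for Thrsp) and with the replicate block, which called 5 of the 21. Fat cell markers also varied: the summed level of 3 adipocyte markers, not adjusted for batch, was 11 to 50.3 CPM at 15 months and 13.1 to 97.4 CPM at 24 months, with medians of 25.9 and 24.0. Adjusted for batch, Adipoq changed by 0.81, Plin1 by 0.90 and Cidec by 0.11, and none of these passed. All 12 listed adipocyte genes had estimates above 0, with a median of 0.74 (0.55, -0.23 and 1.59 by batch). Their part in the result was not tested. Fasn lost its call in 5 of the 33 fits without 1 mouse.

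Of 25 genes of cholesterol synthesis, 23 had estimates above 0 (median 0.14, with 0.16, 0.19 and 0.093 by batch), but few were called, 1 higher and 1 lower. Fdft1 (squalene synthase) changed by 0.27 ± 0.097 (adjusted p = 0.0675) and Hmgcs1, the most abundant per length, by 0.30 ± 0.12 (adjusted p = 0.108). The number of called rises ranged from 0 to 6 when 1 mouse was left out, and was 3 with DESeq2 or with at least 10 counts in every mouse, 7 with only the 33 mice and 0 with the replicate block or without the filter on low counts. In fatty acid oxidation 3 of 37 rose and 2 fell, with the fatty acid transporter Cd36 higher (0.50 ± 0.16, adjusted p = 0.0342, batch values 0.33, 0.084 and 1.05) and Slc27a2 lower (-0.30 ± 0.074, adjusted p = 0.00635), and in glycolysis 1 of 28 was called, Aldoc (0.26 ± 0.067, adjusted p = 0.0084). Fdft1 lost its call in 3 of the 33 fits without 1 mouse.

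Cytochrome P450 enzymes, which oxidise drugs, steroids and retinoids, changed one by one: 9 of 45 tested rose and 5 fell (median 0.11). Cyp26b1, which breaks down retinoic acid, ranged from 1.38 to 7.13 CPM at 15 months (median 2.64) and from 2.83 to 15.2 CPM at 24 months (median 7.01), a change of 1.23 ± 0.35 (adjusted p = 0.0211). Cyp3a25 and Cyp3a11, near relatives whose reads can be confused, rose by 0.78 ± 0.26 (adjusted p = 0.0474) and 0.90 ± 0.26 (adjusted p = 0.0226), the last from medians of 0.20 CPM to 0.326 CPM. The neighbours Cyp2d9, Cyp2d10 and Cyp2d12 fell. Cyp2d12 lay between 5.16 and 10.6 CPM in the 15-month mice (median 7.67) and between 3.36 and 10.4 CPM in the 24-month mice (median 4.95), a change of -0.54 ± 0.14 (adjusted p = 0.00945), and Cyp2d9 changed by -0.49 ± 0.16 (adjusted p = 0.0398). These too are close copies, and the number of falls on the list was 3 in 16 of the 33 fits without 1 mouse and with the marker scores as covariates. The most abundant enzyme per length, Cyp2c55, had medians of 3102 and 3169 CPM and did not pass. Cyp2d10 lost its call in 24 of the 33 fits without 1 mouse.

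Of 52 tested lysosomal genes 9 rose and 1 fell (median 0.021). Atp6v0d2, a proton pump subunit known from osteoclasts and macrophages, ranged from 0.124 to 0.530 CPM at 15 months (median 0.218) and from 0.237 to 1.07 CPM at 24 months (median 0.549). 9 of 17 older mice lay above all younger ones, a change of 1.32 ± 0.20 (adjusted p = 4.21e-06). The protease Ctsk rose by 0.33 ± 0.084 (adjusted p = 0.00803), and the others were Laptm5, Cd68, Ctsh, Lgmn, Npc1, Cln3 and Ctss. Several of these are also macrophage genes. The summed level of 5 macrophage markers, of which 4 were called higher, went from a median of 152 CPM (range 126 to 202) to 184 CPM (range 139 to 236), and its part in the result was not tested. Psap, the most abundant per length, had medians of 995 and 1030.2 CPM and did not pass. Of 36 antioxidant genes 4 rose and 3 fell, and 2 rose without the 24-month mouse 15. The secreted enzymes Sod3 (0.37 ± 0.095, adjusted p = 0.0089) and Gpx3 (0.20 ± 0.066, adjusted p = 0.0467) were among those higher, and the epithelial peroxidase Gpx2 (-0.31 ± 0.099, adjusted p = 0.0365) among those lower. Laptm5, Cd68, Lgmn and Cln3 lost their calls in 9, 3, 2 and 4 of the 33 fits without 1 mouse.

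Elastic fibres, made of elastin on a scaffold of fibrillin and crosslinked by lysyl oxidases, let the wall recoil, and proteoglycans such as decorin and fibromodulin space the collagen fibrils. Of 49 tested genes of elastic fibres and other matrix 21 rose and 2 fell, with a median of 0.21 (0.15, 0.13 and 0.40 by batch). The summed level was 1469.6 to 2706 CPM (median 2357) at 15 months and 2032 to 3179.9 CPM (median 2710.5) at 24 months, with 9 of 17 older mice above all younger ones. The 15-month mouse 16 was the lowest of its age in 38 of the 49, and without it 20 rose. Eln (chr5:134702593-134747323) ranged from 9.47 to 21.4 CPM at 15 months (median 15.4) and from 13.9 to 28.9 CPM at 24 months (median 21.4). The lowest younger value was that of mouse 16 and the next was 12.7 CPM. 9 older mice lay above the younger range, and the log2 fold change was 0.51 ± 0.10 (adjusted p = 0.000981). Risers around it were the fibre genes Fbn1, Fbln2, Fbln5, Mfap4, Ltbp2, Ltbp4 and Emilin2, the crosslinking enzymes Lox, Loxl1 and Loxl4, the proteoglycans Dcn, Bgn and Fmod, and the laminins Lama2, Lama4, Lama5 and Lamc1. Fmod rose by 0.60 ± 0.17 (adjusted p = 0.0192) and Ltbp2 by 0.49 ± 0.14 (adjusted p = 0.024), while Spp1 fell from a median of 1.72 CPM to 0.780 CPM, with 11 of 17 older mice below all younger ones. Fbln2, Ltbp4 and Emilin2 lost their calls in 1, 1 and 11 of the 33 fits without 1 mouse.

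Of 39 tested collagen genes 9 rose and 30 did not pass (median 0.16, with 0.077, 0.14 and 0.27 by batch). Col1a1, Col1a2 and Col3a1 were among those that did not pass. The risers were Col17a1 (0.46), Col6a5 (0.38), Col5a3 (0.35), Col14a1 (0.32), Col13a1 (0.31), Col18a1 (0.29), Col15a1 (0.26), Col27a1 (0.25) and Col4a2 (0.23). Col5a3 lay between 10.3 and 20.5 CPM in the 15-month mice (median 16.4) and between 15.1 and 31.5 CPM in the 24-month mice (median 20.9), a change of 0.35 ± 0.10 (adjusted p = 0.0269). Without the 24-month mouse 16, or without the filter on low counts, the number of rises was 5, and with only the 33 mice in the fit it was 14. Of 48 tested matrix proteases and inhibitors 13 rose and 2 fell (median 0.16, with 0.090, 0.12 and 0.22 by batch), and without the filter 8 rose. Beside Mmp12, the risers were the inhibitors Timp2, Timp3 and Serpine2, the proteases Mmp11, Mmp19, Mmp23, Adamts2, Adamts6 and Adamts12, and the matrix-bound relatives Adamtsl2 (0.55 ± 0.15, adjusted p = 0.0144), Adamtsl3 and Adamtsl4. The summed level of 5 fibroblast markers moved in the same direction. It was 473 to 1015 CPM (median 796) at 15 months and 527 to 1094 CPM (median 922) at 24 months, and its part was not tested. Of the 5 markers 1, Dcn, was called, and Col1a1, Col3a1, Lum and Pdgfra did not pass. Dcn, Col1a1 and Col3a1 are also members of the matrix and collagen lists. Col17a1, Col15a1, Col27a1, Col4a2, Adamts2, Adamts6, Adamts12 and Adamtsl4 lost their calls in 17, 2, 16, 4, 2, 1, 4 and 2 of the 33 fits without 1 mouse.

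Vessel genes rose in the largest share of any list with at least 20 tested members. Of 30 tested genes of blood endothelium 18 rose and 12 did not pass, with a median of 0.22 (0.16, 0.18 and 0.35 by batch), and the summed level was 299 to 517 CPM (median 445) at 15 months and 469 to 551 CPM (median 524) at 24 months. The risers span receptors of vessel growth (Kdr, Flt1, Tie1), junction and surface proteins (Pecam1, Cdh5, Esam, Eng, Cd93, Plvap, Ptprb, Robo4), the factors Erg and Sox17 and secreted proteins (Vwf, Mmrn2, Egfl7). Vwf, the von Willebrand factor that tethers platelets, ranged from 12.2 to 27.8 CPM at 15 months (median 24.1) and from 25.9 to 39.4 CPM at 24 months (median 31.0). 14 of 17 older mice lay above all younger ones, a change of 0.39 ± 0.071 (adjusted p = 0.000177). Mmrn2 rose by 0.31 ± 0.057 (adjusted p = 0.000181) and Nos3, the nitric oxide synthase of vessels, by 0.37 ± 0.097 (adjusted p = 0.0114). With the marker scores as covariates 18 were higher and 1 lower. The 15-month mouse 16 was the lowest of its age in 23 of the 30 genes, Vwf among them, where the next lowest had 22.3 CPM. Without it 18 of the 30 were higher and 1 lower (median 0.20), and Vwf changed by 0.34 (adjusted p = 0.000186). Kdr and Erg lost their calls in 2 and 1 of the 33 fits without 1 mouse.

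Of 13 tested genes of lymphatic endothelium 5 rose, and all 13 estimates were above 0 (median 0.20, with 0.15, 0.17 and 0.27 by batch). Lyve1, a hyaluronan receptor of lymphatics and some macrophages, lay between 17.4 and 21.7 CPM in the 15-month mice (median 19.1) and between 18.6 and 27.8 CPM in the 24-month mice (median 24.1), a change of 0.30 ± 0.058 (adjusted p = 0.000333) with 13 of 17 older mice above all younger ones. Flt4 (the receptor of vascular growth factor C), Reln, Foxc2 and Sema3d were the other risers. Prox1, the factor that defines the lineage, did not pass.

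Of 30 tested macrophage genes 13 rose and 17 did not pass, with a median of 0.24 (0.21, 0.20 and 0.20 by batch). Gpnmb, a transmembrane glycoprotein of lipid-laden macrophages, ranged from 3.09 to 10.3 CPM at 15 months (median 4.23) and from 7.26 to 18.9 CPM at 24 months (median 10.6). 10 of 17 older mice lay above all younger ones, a change of 1.30 ± 0.16 (adjusted p = 3.53e-09). Trem2, a lipid-sensing receptor of the same cells, lay between 0.685 and 1.84 CPM in the 15-month mice (median 1.16) and between 1.42 and 2.82 CPM in the 24-month mice (median 2.16), a change of 0.86 ± 0.12 (adjusted p = 3.72e-07) with 11 above, and Cx3cr1, the fractalkine receptor of resident gut macrophages, rose by 0.47 ± 0.10 (adjusted p = 0.00249) with 14 above. The others were Timd4, Csf1r, Cd68, Itgam, Stab1, Spi1, Lyz2 and the 3 C1q chains. C1qa (adjusted p = 0.0799) and Lyz2 (adjusted p = 0.079) lost their call in 6 and 8 of the 33 fits without 1 mouse and with the marker scores as covariates. Adgre1, Mrc1, Cd163 and Mertk did not pass. The number of risers was 8 without the 15-month mouse 3 and without the 24-month mouse 3, and with the marker scores as covariates 6 were higher and 1 lower. With only the 33 mice 18 were higher and 1 lower, and without the filter on low counts 7 were higher. Csf1r and Spi1 lost their calls in 13 and 6 of the 33 fits without 1 mouse.

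Complement is a cascade of plasma proteins that mark particles for removal, and most of its early components are also made in tissue. Of 27 tested genes 11 rose and 16 did not pass (median 0.26, with 0.24, 0.22 and 0.25 by batch). Among the risers were C3 (0.59), C4b (0.42), C1ra (0.39), Vtn (0.36), Serping1 (0.35), C3ar1 (0.32), C1s1 (0.30), C1qb (0.28), C1qc (0.26) and C1qa (0.24), which include the classical pathway, C3, its receptor and the inhibitors Serping1 and Vtn. The 15-month mouse 16 was the lowest of its age in 10 of the 27, and without it 11 rose. C4b, of which it set the lowest value with the next at 46.7 CPM, ranged from 33.9 to 81.1 CPM at 15 months (median 56.9) and from 65.3 to 89.9 CPM at 24 months (median 74.9). 6 of 17 older mice lay above all younger ones, a change of 0.42 ± 0.087 (adjusted p = 0.000988). C3, the central component, rose by 0.59 ± 0.17 (adjusted p = 0.018) from 69.5 CPM to 92.7 CPM. The terminal components C6, C7 and C8g and the alternative pathway genes Cfb, Cfd and Cfp did not pass. The C1q chains are also on the macrophage list. The summed level of 5 macrophage markers rose from a median of 152 CPM to 184 CPM, and its part in the result was not tested. Vtn lost its call in 3 of the 33 fits without 1 mouse.

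Of 22 tested plasma cell genes, which include constant regions of antibodies, 3 rose (5 without the 15-month mouse 15) and 2 fell, and the median was -0.027 (-0.10, 0.21 and -0.090 by batch), or 0.044 with the replicate block. The risers were Ighg1, Ighg2b and Ighg2c, and the fallers Txndc5 (-0.12) and Xbp1 (-0.15), which other secretory cells also express. Ighg3, Igha, Ighm and the lambda chains did not pass. Ighg2c, the constant region of IgG2c, ranged from 169 to 339.9 CPM at 15 months (median 239) and from 177 to 746 CPM at 24 months (median 473). 12 of 17 older mice lay above all younger ones, a change of 0.96 ± 0.19 (adjusted p = 0.000692) with batch values of 0.98, 1.08 and 0.80. Ighg2b rose by 0.68 ± 0.22 (adjusted p = 0.0386), and Ighg1 spread from 2.88 to 487 CPM at 24 months, with 41.7% of its summed level from 1 mouse, and its call (adjusted p = 0.0763) was lost in 9 of the 33 fits without 1 mouse. Igkc, the kappa light chain, had medians of 2145 and 2549 CPM and a batch-adjusted change of -0.070 that did not pass. Of 175 tested variable segments 10 rose and 9 fell, shares close to the background in each direction, and 6 rose without the 24-month mouse 13. Several rested on 1 mouse: 80.5% of the level of Ighv1-58 at 24 months was in 1 animal, and without the 24-month mouse 3 its change of 2.81 became 0.37 (adjusted p = 0.73). These segments share sequence, so their reads can be split.

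Of 32 tested B cell and follicle genes 2 were called, Ebf1 and Mfge8, which other cells also express. The median was 0.14, but 0.032, 0.71 and -0.44 in the 3 batches. Of 46 T cell and intraepithelial lymphocyte genes 2 rose, the cytokine receptors Il7r (0.43 ± 0.090, adjusted p = 0.00128) and Il2rb (0.25 ± 0.096, adjusted p = 0.0848), the last with its call lost in 13 of the 33 fits. In antigen presentation, 7 of 28 class I genes rose (median 0.098): H2-Q10 (0.65 ± 0.11, adjusted p = 6.16e-05), H2-Q6 (0.49 ± 0.12, adjusted p = 0.00808), H2-M2 (0.48 ± 0.14, adjusted p = 0.0259), H2-Q7, Nlrc5, Tap1 and H2-Q4, of which the H2-Q genes are near copies. H2-Q10 lay between 13.5 and 23.6 CPM in the 15-month mice (median 15.8) and between 16.4 and 36.7 CPM in the 24-month mice (median 24.0). The classical H2-K1 and H2-D1 and B2m did not pass. All 11 tested class II genes had estimates above 0 (median 0.28), but edgeR called 0 of them, 4 had an unadjusted p-value below 0.05 and DESeq2 called 1. With only the 33 mice in the fit 6 of the 11 were called higher, with the replicate block 1, and up to 4 when 1 mouse was left out. Il2rb lost its call in 13 of the 33 fits without 1 mouse.

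Of 66 tested interferon-stimulated genes 4 rose and 2 fell (median 0.079, with -0.11, 0.059 and 0.30 by batch). The GTPase gene Iigp1 went from a median of 22 CPM to 37.1 CPM, a change of 0.84 ± 0.26 (adjusted p = 0.0347). Without the 24-month mouse 15 it was 0.68 (adjusted p = 0.106). The rises on the list numbered 7 without the 15-month mouse 4 or the 24-month mouse 5. Gbp9 rose by 0.33 ± 0.11 (adjusted p = 0.0405), while the RNA-degrading Isg20 ranged from 20.9 to 29.2 CPM at 15 months (median 24.6) and from 15.7 to 24.4 CPM at 24 months (median 19.3), a change of -0.29 ± 0.056 (adjusted p = 0.000333). The predicted gene Gm4841, outside this list, rose by 1.47 ± 0.38 (adjusted p = 0.0102) with a spread of 0.237 to 9.91 CPM at 24 months. Of 48 chemokines and receptors 5 rose (9 without the 24-month mouse 5) and 1 fell, among them Cxcr6 (0.31 ± 0.099, adjusted p = 0.0383) and the goblet-associated Ccl6 (-0.27 ± 0.064, adjusted p = 0.00511). Of 83 interleukins, receptors and TNF family genes 10 rose and 3 fell: the IL-18 receptor subunit Il18rap rose by 0.44 ± 0.12 (adjusted p = 0.0138), Tnf by 0.42 ± 0.13 (adjusted p = 0.0292) from 3.04 CPM to 3.97 CPM, and Tnfsf13 (APRIL, a plasma cell survival factor) fell, with a log2 fold change of -0.21 ± 0.059 (adjusted p = 0.0143). The number of rises was 6 without the 15-month mouse 3, the 24-month mouse 1 or the 24-month mouse 13, and that of falls 1 without the 15-month mouse 6.

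**Figure D5:**
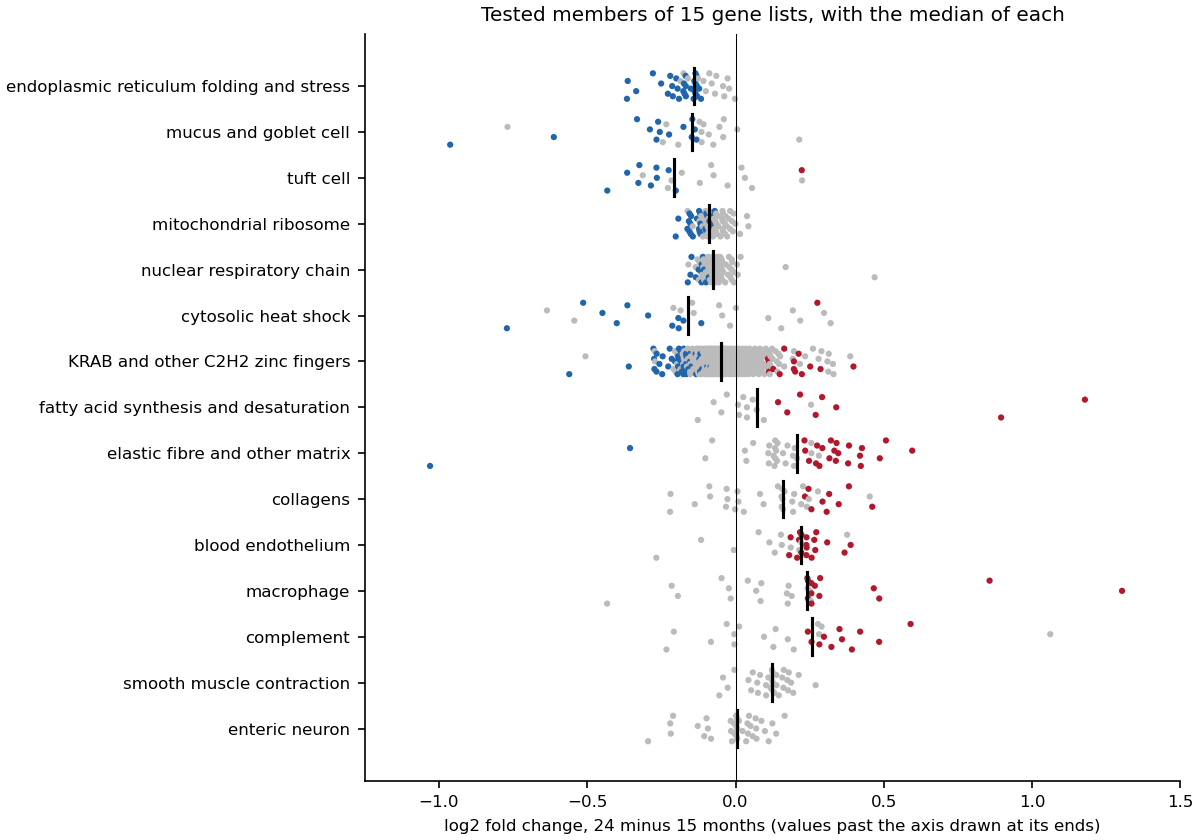
Log2 fold change at 24 against 15 months (horizontal axis) of every tested member of 15 gene lists (rows). Red points are members called higher, blue points members called lower and grey points members that did not pass, and the black bar is the median of the list. All 45 members of endoplasmic reticulum folding lie below 0 (median -0.14), most members of blood endothelium lie above 0 (median 0.22), and the enteric neuron list centres on 0 (median 0.0052).

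In muscle and nerve few genes were called. Of 33 genes of smooth muscle contraction edgeR called 0, although 29 estimates were above 0 (median 0.12, with 0.15, 0.080 and 0.12 by batch), 1 had an unadjusted p-value below 0.05 and DESeq2 called 1. With only the 33 mice in the fit 6 were higher. With the marker scores as covariates, of which smooth muscle is one, 1 was higher and 1 lower, and the median was -0.0057. The most abundant per length, Actg2, ranged from 449 to 730.1 CPM and from 415 to 886 CPM. Of 37 enteric neuron genes edgeR called 0, 1 had an unadjusted p-value below 0.05 and DESeq2 called 1, with a median of 0.0052. With the marker scores as covariates 5 were lower (median -0.089), with only the 33 mice 1 was lower, and without the batch term the median was -0.0053. Of 26 genes of pacemaker and PDGFRA cells edgeR called Grem1 alone (0.30, adjusted p = 0.0767), and DESeq2 1 higher and 1 lower. With only the 33 mice 3 were higher and 2 lower. Grem1 lost its call with the marker scores as covariates, a fit that called 0 of the list, and without the 24-month mouse 1 or 11. Of 22 enteric glia genes 4 rose and 1 fell (median 0.18): Erbb3 by 0.30 ± 0.083 (adjusted p = 0.0153), which epithelium expresses too, Scn7a by 0.29 ± 0.081 (adjusted p = 0.0157) and Entpd2 among them, while Sox10, S100b and Gfap did not pass. The rises numbered 2 without the 15-month mouse 13 and without the 24-month mouse 16. Entpd2 lost its call in 2 of the 33 fits without 1 mouse.

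Guidance molecules, which steer axons and vessels, were higher in 12 and lower in 3 of 73 genes tested (median 0.069). Slit3 ranged from 4.18 to 11.5 CPM at 15 months (median 8.06) and from 8.85 to 14.6 CPM at 24 months (median 11.1), a change of 0.51 ± 0.11 (adjusted p = 0.00177) with batch values of 0.38, 0.30 and 0.88, Plxnd1 rose by 0.26 ± 0.056 (adjusted p = 0.00191), and Robo4, Nrp1, Sema3g and Reln are known from vessels. Unc5a fell, with a log2 fold change of -0.20 ± 0.065 (adjusted p = 0.0384), and 1 gene fell without the 15-month mouse 5 or 8. Of 42 clustered protocadherins, cell surface proteins that give neurons their identity, 7 rose, all of the beta cluster (median 0.14, with 0.053, 0.12 and 0.32 by batch). Pcdhb16 lay between 1.29 and 2.27 CPM in the 15-month mice (median 1.9) and between 2.04 and 3.84 CPM in the 24-month mice (median 2.79), a change of 0.58 ± 0.11 (adjusted p = 0.000244) with 14 of 17 older mice above all younger ones, and Pcdhb12 rose by 0.54 ± 0.15 (adjusted p = 0.0189). The single-exon genes of this cluster are similar to each other, and reads could be split between them.

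Of the signalling pathways, Notch, in which contact between neighbouring cells releases a nuclear cofactor of Rbpj, had 6 genes higher and 2 lower of 31 (median 0.064). Notch3, the receptor of vascular smooth muscle and pericytes, ranged from 5.08 to 14.9 CPM at 15 months (median 12) and from 13.7 to 18.7 CPM at 24 months (median 16.7). The lowest younger value was that of mouse 16, the lowest of its age in 22 of the 31 Notch genes, and the next was 10.1 CPM. 14 of 17 older mice lay above all younger ones, a change of 0.48 ± 0.084 (adjusted p = 6.56e-05), or 0.43 without that mouse (adjusted p = 5e-05), when 5 of the list were higher. Its target gene Heyl lay between 1.98 and 4.64 CPM in the 15-month mice (median 3.42) and between 2.32 and 5.97 CPM in the 24-month mice (median 5.10), a change of 0.51 ± 0.11 (adjusted p = 0.00195), and Notch2, Rbpj, Maml2 and Lfng also rose. Nrarp, a target that dampens the signal, fell, with a log2 fold change of -0.27 ± 0.087 (adjusted p = 0.0367), and Hes6 fell too. Hes1, Notch1 and Dll1 did not pass. The insulin-like growth factor group had 7 of 20 higher and 1 lower. Igfbp5, a binding protein of this factor, ranged from 68.1 to 144 CPM at 15 months (median 104) and from 113 to 220.0 CPM at 24 months (median 147), a change of 0.54 ± 0.091 (adjusted p = 3.83e-05), and Igfbp7 rose by 0.24 ± 0.074 (adjusted p = 0.0296). The rises numbered 4 without the 15-month mouse 13 and without the 24-month mouse 1, and without the 15-month mouse 16 there were 5 rises and 4 falls. Maml2, Lfng and Hes6 lost their calls in 7, 12 and 5 of the 33 fits without 1 mouse.

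Of 57 genes of BMP and TGF beta signals 12 rose and 3 fell (median 0.057). The risers include ligands (Tgfb2, Tgfb3, Bmp6), receptors (Tgfbr2, Tgfbr3) and secreted antagonists (Grem1, Chrd, Chrdl1, Chrdl2), and the target Id1 fell, with a log2 fold change of -0.27 ± 0.070 (adjusted p = 0.00888) from 144 CPM to 118 CPM. The falls numbered 1 without the 15-month mouse 1 or 5 or the 24-month mouse 5 or 15, and 5 without the 15-month mouse 16. Of 22 genes of steroid receptors and corticosteroid response 4 rose. Among them were Hsd11b1, Klf15 and Lcn2, while the corticosteroid targets Fkbp5, Tsc22d3 and Per1 did not pass. Of 37 Wnt ligands, receptors and antagonists 2 rose and 1 fell, with the secreted antagonist Sfrp1 higher by 0.30 ± 0.076 (adjusted p = 0.00729). Tgfb2, Tgfb3, Chrdl2 and Klf15 lost their calls in 7, 9, 15 and 10 of the 33 fits without 1 mouse.

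Few genes of crypt renewal were called. Of 53 cell cycle genes 1 was called, Ccne2 (-0.25 ± 0.092, adjusted p = 0.0791), with its call lost in 12 of the 33 fits without 1 mouse, and the median was 0.0085 (-0.11, 0.018 and 0.078 by batch). Of 24 genes of crypt stem cells and Wnt targets 2 fell, Cd44 (-0.20 ± 0.066, adjusted p = 0.0425) and Tnfrsf19, and of 26 epithelial identity factors 2 rose and 3 fell, with Cdx1 lower (-0.16 ± 0.053, adjusted p = 0.0464). Of 44 genes of Polycomb complexes and DNA methylation 2 rose and 2 fell: Cbx7 rose by 0.24 ± 0.056 (adjusted p = 0.00386) from 40.6 CPM to 48.0 CPM, together with Ezh1, and Epop (-0.61 ± 0.21, adjusted p = 0.0513) and Cbx8 fell. Of 36 genes of senescence and the p53 response 3 rose and 3 fell. Those that rose were Igfbp5, Igfbp7 and Sesn1, and the p53 targets Ccng1 (-0.15 ± 0.042, adjusted p = 0.0142), Aen (-0.28 ± 0.081, adjusted p = 0.0227) and Gadd45a fell. Cdkn2a was not tested. Of 27 circadian clock genes 2 rose and 1 fell, Cry2 by 0.28 ± 0.089 (adjusted p = 0.0401) and Noct by -0.29 ± 0.082 (adjusted p = 0.0168), and of 28 imprinted growth genes 1, Igf2, was called higher, against 0 higher and 1 lower without the 15-month mouse 16. Tnfrsf19, Ezh1, Cbx8, Sesn1, Gadd45a and Igf2 lost their calls in 4, 1, 11, 24, 3 and 22 of the 33 fits without 1 mouse.

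Markers of neighbouring tissue varied between mice. Of 5 tested pancreas genes 3 were called, led by Cpb1 (3.08 ± 0.76), of which 63.3% of the summed level at 24 months came from 1 mouse. The batch medians of the list were -0.12, -0.075 and 1.86. The number called was 0 without the 24-month mouse 11 or 16 and with only the 33 mice in the fit. It was 1 without any of 10 mice of 15 months, with the marker scores as covariates, with the replicate block and with at least 10 counts in every mouse. Without the filter on low counts it was 9. Of 12 adipocyte genes 2 were called (median 0.74, with 0.55, -0.23 and 1.59 by batch), and 0 with the marker scores as covariates. Of 8 skeletal muscle genes 3 were called, with Acta1 between 3.28 and 16.1 CPM in the 15-month mice (median 6.35) and between 5.83 and 35.6 CPM in the 24-month mice (median 9.78), a change of 0.59 ± 0.17 (adjusted p = 0.0224). Of 5 markers of stratified epithelium and urogenital tract 2 fell, Spink1 and Upk1b, of 4 liver genes Ttr and of 8 mesothelial genes Lrrn4 were called higher, and of 6 red cell genes edgeR and DESeq2 called 0, with 0 at an unadjusted p-value below 0.05. The mast cell, eosinophil and neutrophil list had 3 rises, Gata2, S100a8 and S100a9, or 5 rises without the 15-month mouse 2, and 1 fall, the eosinophil receptor Siglecf (-0.40 ± 0.10, adjusted p = 0.00705). Ttr and Lrrn4 lost their calls in 2 and 11 of the 33 fits without 1 mouse.

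The change from 15 to 24 months was tested against that from 3 to 9 months, an interval measured in other mice. The later interval is the longer, and neither change was scaled to length. A difference between the 2 changes therefore mixes life stage with interval length. The changes differed in 873 genes, 4.76% of those tested, 404 toward a higher and 469 toward a lower late change, and 460 of them were called between 15 and 24 months. Between 3 and 9 months 8.69% of all genes tested were called. Of 313 genes called in both intervals 259 moved in the same direction, 22 fell early and rose late, and 32 rose early and fell late. Eln turned upward, with -0.32 between 3 and 9 months and 0.51 between 15 and 24 months, a difference of 0.83 ± 0.15 (adjusted p = 0.000238). Spp1 turned downward, with 0.95 and -1.03, a difference of -1.98 ± 0.34 (adjusted p = 7.13e-05).

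Among the factors, the late change of Tfap2a exceeded the early one (-0.12) by 3.85 ± 0.36 (adjusted p = 1.27e-13), and that of Dmrta2, which rose early as well (0.95), by 1.06 ± 0.20 (adjusted p = 0.000501). For Irx2 the early change of 2.05 and the late one of 2.30 did not pass the test of their difference (adjusted p = 0.899). By group, the change was more negative late in 8 of 45 genes of endoplasmic reticulum folding, 9 of 28 goblet genes (with 1 more positive), 6 of 22 tuft cell genes and 5 of 29 enteroendocrine genes, and more positive late in 7 of 30 blood endothelial genes, 6 of 49 matrix genes (with 1 more negative), 6 of 31 Notch genes and 5 of 28 imprinted growth genes. In the imprinted list 7 of 28 genes fell between 3 and 9 months, against the 5.05% of all genes given above. Of the 28 heat shock genes 1 differed.

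The genes that rose and fell also differed in form, as a description with no test. The median span of the gene was 25791 bases for those that rose, 15317.5 for those that fell and 18943 for all genes tested, and the median merged exon length was 4489.5, 3495 and 3807 bases. RefSeq promoter windows (250 bases before to 50 after the start) were found for 12716 of the genes tested. They held a median of 15 CpGs for genes that rose, 20 for those that fell and 19 for all. The ETS motif CCGGAAGT, searched on both strands, was in 3.65% of the windows of genes that rose, 12.4% of those that fell and 7.68% of all, and the cyclic AMP response element TGACGTCA in 0.731%, 4.06% and 3.29%. The AP-1 motif TGANTCA ran the other way, with 9.62%, 6.09% and 6.89%. The AP-2 motif GCCNNNGGC, which the product of Tfap2a can bind, was in 29.1%, 26.1% and 27.3%. A match says only that these letters are present.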

How the data were processed

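Colon RNA of 83 male mice was sequenced as stranded, polyadenylated libraries (100 bp paired ends). The authors trimmed reads with cutadapt 2.8 and PrinSeq, aligned them with HISAT2 2.1.0 to GRCm38 (Ensembl 99), kept uniquely mapped reads with SAMtools 1.9 and deposited raw counts per gene from featureCounts (Subread 2.0.1). Keeping unique reads lowers the counts of near-identical genes. Here, edgeR 4.0.16 (R 4.3.3) was run on the counts as deposited: filtering by expression per age and TMM scaling left 18325 of 37764 genes, and a quasi-likelihood model with age and library batch over all 83 mice gave the difference of 24 and 15 months, with Benjamini-Hochberg adjustment and a threshold of 0.1. CPM is the count scaled to a common library size by TMM, and TPM uses merged exon lengths from GENCODE release 21. Tested on simulated counts, the script recovered 85 of 100 genes with a log2 change of 0.5 and 96 of 100 with one of 1, and 13 of its 194 calls were unchanged genes.

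The members and gene lists were chosen with earlier results of these data known. Genes were named by a rule: the 8 largest rises and falls and the 5 smallest p-values per direction among called genes of at least 1 CPM with the same direction in 3 batches, immunoglobulin and T cell receptor segments excepted; up to 3 rises and 3 falls and the most abundant member of each list; and Tfap2a with its paralogs. Of the 293 genes this gave, the text describes mainly those that kept their call when any 1 mouse was left out. Alternatives were DESeq2 1.42.0, its size factors, other filters, no batch term, a replicate block, 2 ages only, marker scores as covariates and leaving out each mouse. Gene coordinates are those of GENCODE on GRCm38, and promoter sequences are RefSeq's on GRCm38.p6, matched by symbol. A few results are not reported here.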

Additional observations from a re-analysis of the deposited data

Results flagged for a closer look

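The change from 15 to 24 months was set against the change from 3 to 9 months in the same model, and the results below are all genes named in the report whose 2 changes differed (edgeR's test of the difference, adjusted p-value under 0.1). In all, 873 genes differed, of which 460 were called between 15 and 24 months, 355 between 3 and 9 months, 63 in both and 121 in neither. Of the genes listed below, Reg3b, Hspa1a, Tsc22d3, Notch1, C6, Cck, Chga and Fcgbp did not pass between 15 and 24 months. Each value in brackets is the log2 change from 15 to 24 months minus that from 3 to 9 months, so a value above 0 means a more positive late change. The later interval is the longer of the 2, and neither change was scaled to length.

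Of the developmental factors and other low genes, the late change was more positive in Tfap2a (3.85), Gm20554 (1.83), Gata4 (1.10), Dmrta2 (1.06), Foxc2 (0.93) and Lhfpl4 (0.78). Of macrophage, neutrophil and lymphocyte genes it was more positive in Ighv1-58 (3.21, with a late change of only 0.37 without the 24-month mouse 3), Mmp12 (2.05), S100a9 (1.72), Atp6v0d2 (1.00), Gpnmb (0.99), Trem2 (0.88), Timd4 (0.64), Cx3cr1 (0.52) and Il2rb (0.40). Of vessel, matrix and Notch genes it was more positive in Eln (0.83), Adamtsl2 (0.78), Heyl (0.56), Nos3 (0.52), Igfbp5 (0.46), Notch3 (0.45), Lyve1 (0.36), Notch2 (0.33) and Mmrn2 (0.30). It was also more positive in Cyp3a11 (1.66) and Cry2 (0.39).

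The late change was more negative in the epithelial genes Retnlb (-1.71), Anxa13 (-1.05), Clca1 (-1.01), Cyp2d12 (-0.93), Nts (-0.89), Gnat3 (-0.78), Cyp2d9 (-0.66), Gcg (-0.56), Rgs13 (-0.52), Slc27a2 (-0.52), Gpx2 (-0.46), Kcne3 (-0.37), Cd24a (-0.30) and Vsig2 (-0.28). Vsig2 rose in both intervals, so its value below 0 marks a smaller late rise. It was also more negative in Spp1 (-1.98), Kirrel3os (-1.70), Kcnj2 (-0.98), Egr1 (-0.68), Siglecf (-0.56), Upk1b (-0.54), Isg20 (-0.32), Chn2 (-0.31), Armcx3 (-0.27), Tnfsf13 (-0.27), Cstf2t (-0.24), Zfp709 (-0.24) and mt-Nd2 (-0.17).

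Among genes that the report gives only as members of a list, the late change was more positive in Reg3b (2.08), Hspa1a (1.77), Lox (0.46), Chrd (0.43), Lama5 (0.39), Fbn1 (0.37), Srebf1 (0.34), Tsc22d3 (0.34), Serping1 (0.33), Lama2 (0.32), Ptprb (0.32), Robo4 (0.30), Cdh5 (0.28), Elovl6 (0.28), Notch1 (0.28), Flt4 (0.26), Tie1 (0.26), Ctss (0.23), Lfng (0.23) and Pecam1 (0.22). It was more negative in C6 (-0.77), Cck (-0.57), Neurod1 (-0.50), Agr2 (-0.47), Fcgbp (-0.47), Capn9 (-0.44), Bmx (-0.40), Alox5 (-0.38), Chga (-0.35), Sh2d6 (-0.35), Car4 (-0.34), C1galt1c1 (-0.28), Dnajb9 (-0.27), Sec61g (-0.26), Pigr (-0.25), Sec11c (-0.22), Spcs1 (-0.20), Pdia5 (-0.19), Ssr4 (-0.19), Edem2 (-0.18), Ssr3 (-0.18) and Galnt12 (-0.16).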

How the results depend on the processing

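With edgeR 2476 genes were called, 1150 higher and 1326 lower, and 873 differed from the earlier interval. Without a filter on low counts the counts were 1524 called, 730 lower and 506 differing. At an adjusted p-value below 0.05 they were 1380 called, 635 higher, 745 lower and 449 differing. With only the 33 mice of the 2 ages 1745 genes were higher, and with marker scores of colonocytes, smooth muscle and B cells as covariates 1566 differed. The threshold of 0.05 is a stricter cut on the same p-values, and the fit without the filter was adjusted over 37764 genes. Beyond this, the cause of these shifts was not tested. DESeq2 (2674 called), its size factors (2434), at least 10 counts in every mouse (2407) and no batch term (2214) stayed within 1.5 times the count. Without 1 mouse, 1725 to 2969 genes were called, 882 to 1423 higher, 843 to 1546 lower and 719 to 1121 differing. The lowest counts of falls were 843 without the 24-month mouse 15 and 865 without the 15-month mouse 13.

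None of the 322 called genes mentioned in the report changed sign in these alternatives or without 1 mouse, but the medians of 14 of the 72 gene lists did in at least 1. That of smooth muscle contraction went from 0.12 to -0.0057 and that of enteric neurons from 0.0052 to -0.089 with the covariates, that of keratins from -0.069 to 0.043 and that of stratified epithelium from -0.24 to 0.039 without the filter, and that of liver from -0.042 to 0.31 with at least 10 counts. The others had medians between -0.027 and 0.029. Of these 322 genes 87 lost their call in at least 1 of the 33 fits without 1 mouse, and 32 of them in at least 11. A call counts as lost only in a fit that tested the gene, and Cpb1 was tested in 29 of the 33. DESeq2 lost 3 (Col17a1, Igf2 and Ighv1-58), its size factors 3 (Cyp2d10, Hspe1 and Klk1), only the 33 mice 4 (Emilin2, Scd1, Slc51b and Thrsp), no batch term 20 (Adamtsl4, C1galt1, Chrdl2, Col17a1, Col27a1, Col4a2, Csf1r, Foxk1, Hspe1, Igf2, Ighg1, Il2rb, Lfng, Mptx2, Sec61g, Serpine2, Slc6a14, Tbx4, Tgfb2 and Tgfb3), the covariates 36 (Adamts12, Ahsa1, Atoh1, C1galt1, C1qa, C1qc, Ccne2, Cd68, Cldn2, Col17a1, Csf1r, Cyp2d10, Fkbp4, Fos, Foxa1, Foxk2, Gadd45a, Grem1, Hsp90aa1, Hspe1, Ighg1, Il2rb, Itgam, Klk1, Laptm5, Lfng, Lyz2, Maml2, Nrp1, Pdia4, Sec61a1, Sesn1, Spcs2, Spi1, Stip1 and Tbx4) and no filter on low counts 83. Of the 144 counts over lists 11 moved past 1.5 times with DESeq2, 18 with the block, 19 with at least 10 counts, 28 with the covariates, 41 with only the 33 mice, 55 without the filter and 59 at an adjusted p-value below 0.05. Of those with 5 or more genes in either fit, without the filter these were falls of cytochrome P450 (5 to 3), falls of nuclear respiratory chain (12 to 2), falls of mitochondrial ribosome (26 to 11), falls of endoplasmic reticulum folding and stress (30 to 19), falls of cytosolic heat shock (11 to 6), rises of lysosome (9 to 5), falls of splicing factors (5 to 3), rises of collagens (9 to 5), rises of matrix proteases and inhibitors (13 to 8), rises of macrophage (13 to 7), rises of KRAB and other C2H2 zinc fingers (14 to 7), falls of KRAB and other C2H2 zinc fingers (44 to 24), rises of BMP and TGF beta signals (12 to 7), rises of the IGF group (7 to 4), rises of pancreas (3 to 9) and rises of the mast cell and granulocyte list (3 to 5); with only the 33 mice, falls of enteroendocrine (5 to 8), rises of cholesterol synthesis (1 to 7), rises of antioxidant (4 to 7), rises of collagens (9 to 14), rises of smooth muscle contraction (0 to 6), rises of enteric glia (4 to 8), rises of T cell and intraepithelial lymphocyte (2 to 7), falls of immunoglobulin variable segments (9 to 3), rises of MHC class II (0 to 6), rises of interferon-stimulated (4 to 9), rises of chemokines and receptors (5 to 8), rises of the interleukin and TNF family list (10 to 17), falls of the interleukin and TNF family list (3 to 5), rises of Polycomb and DNA methylation (2 to 5), rises of KRAB and other C2H2 zinc fingers (14 to 22), rises of senescence and p53 response (3 to 5), rises of the Wnt list (2 to 5) and rises of steroid receptors and corticosteroid response (4 to 8); with the covariates, rises of claudins and tight junction (2 to 5), falls of cytochrome P450 (5 to 3), falls of mitochondrial ribosome (26 to 17), falls of cytosolic heat shock (11 to 6), falls of enteric neuron (0 to 5) and rises of macrophage (13 to 6); with the block, rises of fatty acid synthesis and desaturation (8 to 5), rises of immunoglobulin variable segments (10 to 3) and falls of immunoglobulin variable segments (9 to 0); and with at least 10 counts, rises of immunoglobulin variable segments (10 to 6) and falls of immunoglobulin variable segments (9 to 4). Without the 15-month mouse 16, 19 counts moved past 1.5 times, among them the falls of the respiratory chain (12 to 3) and of zinc fingers (44 to 29), and 7 medians, all within 0.042 of 0, changed sign. With the replicate block 2131 genes were called, 1045 higher and 1086 lower, of which 2028 were called in both fits, and 28 of the genes mentioned lost their call. The labels share replicate numbers but give no common animal or batch: deviations of the 16 same-numbered pairs correlated at -0.243 to 0.176 (median -0.0617), and 0 mice correlated best with their own number.

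The ages fall across 3 library batches in unequal numbers, and lists such as the respiratory chain and B cell genes changed sign between batches. Transcripts below about 1 CPM rest on few counts per mouse. Intervals and tests cover the spread between mice of 1 strain and sex.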
